A study of Mus musculus with 12 samples.

Results

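Pou4f1, Pou4f2, Isl1, Prox1 and Shox2, 5 homeodomain transcription factor genes, were followed through the neurons of the developing mouse cochlea. They were taken by name from a table of read counts that held 24489 genes in single cells, and all 5 were detected and passed the filter on low counts in every comparison. The cells were tdTomato+ cells sorted from spiral ganglia of mice with the reporter allele Ai14 and a Cre driver, 1 plate of 384 wells per deposited sample, and were sequenced with Smart-seq2, a full-length protocol without molecule barcodes. The embryonic stages were E14.5 (2 plates), E15.5 (2 plates), E16.5 (3 plates), E17.5 (1 plate) and E18.5 (2 plates), and postnatal day 3 (P3) had 2 plates that came from an earlier study. All plates were labelled PVcre;Ai14, for a Cre driven by the parvalbumin gene, except E14.5 plate 2, which was labelled TrkCcre, for a Cre driven by the neurotrophin receptor gene TrkC (Ntrk3); the study's methods give that driver for E14.5 as a whole. The cells of every plate were sorted on the reporter, and no plate was a control without Cre. Animals were pooled, the modiolus region rather than the spiral ganglion was taken at E14.5 and E15.5, and sorting moved to another facility at E18.5. Nothing ties plates of a stage to separate litters, so p-values between stages measure the spread between plates, which may be technical.

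A homeodomain is a helical fold that reads short AT-rich DNA sites, and these genes belong to several of its families. POU4F1 (BRN3A) and POU4F2 (BRN3B) are POU-homeodomain factors, of which POU4F1 is known for sensory ganglia and POU4F2 for retinal ganglion cells. ISL1 is a LIM-homeodomain factor of sensory and motor neurons that works through the adaptor LDB1, and POU4F1 and ISL1 are known to act together when sensory neurons leave their progenitor programme. PROX1 is a Prospero-type factor known for lymphatic vessels, lens and the inner ear, and SHOX2 is a paired-type factor known for limb, heart pacemaker and a class of touch neurons.

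The genes lie on 5 chromosomes in GRCm38, the build of the counts (mm10), all on the minus strand: Pou4f1 at chr14:104461676-104467999, Pou4f2 at chr8:78433010-78436645, Isl1 at chr13:116298281-116309689, Prox1 at chr1:190118035-190170714 and Shox2 at chr3:66971727-66981771. The antisense gene Prox1os overlaps the start of Prox1 by 419 bases (chr1:190170296-190170714) and is not a gene of the count table. The strand setting of the counting is not given in the sources used here, so reads of Prox1os in that overlap could not be told from those of Prox1. RefSeq promoters of GRCm38.p6, from 250 bases before to 50 bases after the annotated start, matched all 5 symbols, with a second start for Prox1. They are shown because the genes were measured together in the same cells and their start regions can be set side by side. In capitals are the motifs searched on both strands, the E-box CANNTG, which bHLH factors such as NEUROD1 read, and the homeodomain core TAAT with its reverse ATTA.
Isl1 promoter, chr13:116309639-116309938, minus strand: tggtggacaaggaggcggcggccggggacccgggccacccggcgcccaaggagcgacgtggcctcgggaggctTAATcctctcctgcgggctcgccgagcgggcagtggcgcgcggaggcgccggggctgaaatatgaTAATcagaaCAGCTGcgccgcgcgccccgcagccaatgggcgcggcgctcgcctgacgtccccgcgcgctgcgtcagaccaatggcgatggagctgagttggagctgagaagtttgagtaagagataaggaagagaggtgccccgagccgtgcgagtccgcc
Pou4f1 promoter, chr14:104467950-104468249, minus strand: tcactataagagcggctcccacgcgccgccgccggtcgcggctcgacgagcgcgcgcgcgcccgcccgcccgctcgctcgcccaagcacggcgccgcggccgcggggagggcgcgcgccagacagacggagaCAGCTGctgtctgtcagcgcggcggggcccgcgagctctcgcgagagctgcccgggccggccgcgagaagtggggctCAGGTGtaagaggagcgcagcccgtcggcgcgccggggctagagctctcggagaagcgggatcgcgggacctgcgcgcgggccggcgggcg
Prox1 promoter, chr1:190170778-190171077, minus strand: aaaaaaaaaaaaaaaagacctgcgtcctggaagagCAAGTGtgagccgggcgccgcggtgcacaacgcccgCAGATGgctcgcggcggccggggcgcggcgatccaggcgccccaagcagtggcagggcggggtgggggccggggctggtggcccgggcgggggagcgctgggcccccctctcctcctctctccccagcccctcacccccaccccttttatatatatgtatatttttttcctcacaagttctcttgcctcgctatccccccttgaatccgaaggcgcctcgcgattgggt
Shox2 promoter, chr3:66981722-66982021, minus strand: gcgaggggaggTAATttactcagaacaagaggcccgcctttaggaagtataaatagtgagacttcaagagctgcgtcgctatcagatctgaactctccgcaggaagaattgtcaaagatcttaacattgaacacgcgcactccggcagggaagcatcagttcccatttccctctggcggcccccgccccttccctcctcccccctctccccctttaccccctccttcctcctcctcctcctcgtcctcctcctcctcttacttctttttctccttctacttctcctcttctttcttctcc
The Isl1 window held 1 E-box and 2 homeodomain cores, those of Pou4f1 and Prox1 held 2 E-boxes and no core, and that of Shox2 held 1 core and no E-box. Neither the window of Pou4f2 (chr8:78436598-78436897) nor that of the second Prox1 start (chr1:190169466-190169765) held either motif. Of 32851 RefSeq promoters of that length, 72.3% held the E-box and 58.0% the core. The longer POU4F core ATTAAT (4.75% of promoters) and the LIM-homeodomain site CTAATG or its reverse CATTAG (7.36%) were in none of the 6 windows. The windows held between 53.3% (Shox2) and 78.3% (Pou4f1) G and C, against a median of 52.7% over all promoters. These matches describe letters and not bound sites.

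Of 4608 wells, 4226 cells passed the filter of the study's methods, and plates held 80997594 to 303906928 counts (median 108651215). Clusters were named from marker genes that included neither the 5 genes nor the gene lists described here, and a name such as SGN-like means that a cluster resembled spiral ganglion neurons (SGNs) in those markers. There were 2270 SGN-like cells, 1221 glia-like, 431 otic mesenchyme (OM)-like, 86 hair cell (HC)-like and 218 unnamed cells. The 10 SGN markers were all detected in each plate's SGN-like cells, at a summed level of 12406 to 15353 counts scaled to library size (CPM). Plates fell into 2 kinds: those whose names begin SS2_20 (both of E14.5 and E15.5, E16.5 plate 3 and E17.5) had a median of 4691 to 4983 genes per cell, and the others 8426 to 9629. The summed level of the 8 glial markers in SGN-like cells was 38.9 to 193 CPM in the SS2_20 plates and 862 to 3564 CPM in the others, with Foxd3 at 0 in E14.5 plate 1 as the only marker not detected. No cell identifier was shared between plates, and plates of 1 stage differed by more than counting noise.

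In SGN-like cells, all 5 genes changed between E14.5 and E18.5: Pou4f1, Isl1 and Shox2 fell by 2.69-, 1.99- and 2.07-fold, and Pou4f2 and Prox1 rose by 3.31- and 4.65-fold. The steps called differed by gene: Isl1 fell and Pou4f2 rose between E14.5 and E15.5, Pou4f1 fell between E15.5 and E16.5, and Prox1 rose between E16.5 and E18.5, while differences between steps were not tested. To describe these changes, counts of the SGN-like cells of a plate were summed and are given as CPM on a common TMM scale, 1 value per plate. In such sums fewer cells of a type and less RNA per cell cannot be told apart. A stage held between 70 (E17.5) and 779 (E16.5) SGN-like cells. By the study's methods the Cre driver also changed between E14.5 and E15.5, so driver and stage cannot be told apart in comparisons with E14.5. By the labels only E14.5 plate 2 had the other driver.

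**Figure D1:**
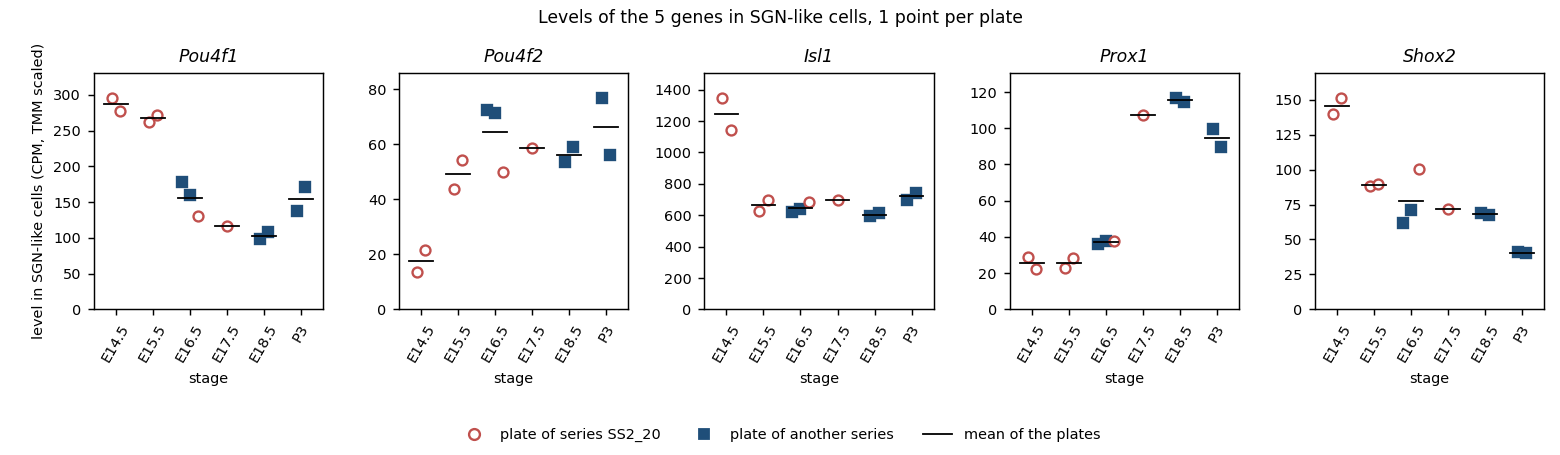
Level of each gene (CPM on a common TMM scale, linear axis from 0) in SGN-like cells by stage, with 1 point per plate, a line at the mean of a stage's plates, open circles for plates of the series SS2_20 and squares for the others. Prox1 lay between 22.5 and 37.9 CPM in the 7 plates up to E16.5 and between 89.7 and 117 CPM in the 5 later ones, while Isl1 was at 1145 CPM or more in the E14.5 plates and at 744 CPM or less in the others.

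Isl1 stood at 1346 and 1145 CPM in the E14.5 plates. It was at 628 and 698 CPM at E15.5, at 620.2, 639 and 682 CPM at E16.5, and at 696 CPM at E17.5. It was at 595 and 614 CPM at E18.5 and at 696 and 744 CPM at P3. The E14.5 plates were apart from all others, and the later stages overlapped each other or lay close together. Between E14.5 and E15.5 Isl1 fell by 0.92 on the log2 scale (SE 0.10, adjusted p = 0.00117, edgeR's quasi-likelihood test), in a comparison in which 5.98% of 17783 genes were called. None of the later steps was called for Isl1 (E16.5 against E15.5 log2 -0.02, E18.5 against E16.5 log2 -0.05, P3 against E18.5 log2 0.25, adjusted p = 0.0969).

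Pou4f2 took the opposite course, from 13.5 and 21.7 CPM at E14.5 to 43.9 and 54.4 CPM at E15.5. It was at 72.3, 71.5 and 50.03 CPM at E16.5, 58.6 CPM at E17.5, 53.6 and 58.8 CPM at E18.5 and 76.8 and 55.9 CPM at P3. The plates of E14.5 were below all others. Those of E15.5 overlapped with E16.5 and E18.5 and lay below E17.5 and P3. The rise at E15.5 was 1.48 on the log2 scale (SE 0.27, adjusted p = 0.0121), so 2 of the 5 genes were called at this step. The adjusted p of Pou4f2 was 0.0536 without E14.5 plate 1 (log2 1.18) and 0.0578 without E15.5 plate 2 (log2 1.32), and 0.0611 (log2 1.49) with SS2_20 plates alone. Shox2 went from 139.8 and 151.1 CPM to 88.5 and 89.6 CPM at this step without overlap (log2 -0.72, SE 0.19, adjusted p = 0.0551, and 0.00897 with DESeq2).

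Pou4f1 was at 295 and 278 CPM at E14.5 and 263 and 272 CPM at E15.5, a step that was not called (log2 -0.11, SE 0.15, adjusted p = 0.725). The E16.5 plates held 179, 159.9 and 130.2 CPM, E17.5 116 CPM and E18.5 98.4 and 108 CPM, with no overlap between E15.5, E16.5 and E18.5. At P3 it was at 138 and 171 CPM, within the range of E16.5. Between E15.5 and E16.5 Pou4f1 fell by 0.76 on the log2 scale (SE 0.14, adjusted p = 0.0249), the only call among the 5 genes in a comparison with 1.83% of genes called. This call was lost with single plates left out, at estimates of log2 -0.74 to -0.78: the adjusted p was 0.0939 without E15.5 plate 1, 0.115 without E15.5 plate 2, 0.0868 without E16.5 plate 2, 0.0533 without E18.5 plate 1 and 0.0523 without E18.5 plate 2, whose plates enter the shared estimate of spread. It was 0.0503 (log2 -0.73) without the cells highest in glial markers and 0.258 (log2 -1.02) within SS2_20 plates alone. From E16.5 to E18.5 the difference of Pou4f1 was log2 -0.56 (SE 0.14, adjusted p = 0.052), which passed under 8 of 19 alternatives (adjusted p 0.00267 with DESeq2, and 0.323 at most, without E18.5 plate 1), and from E18.5 to P3 it rose by 0.58 (SE 0.15, adjusted p = 0.0175).

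Prox1 was at 29.0 and 22.5 CPM at E14.5, 23.0 and 28.5 CPM at E15.5 and 36.4, 37.7 and 37.9 CPM at E16.5. It then stood at 107 CPM at E17.5, 117 and 115 CPM at E18.5 and 99.5 and 89.7 CPM at P3. Every plate from E17.5 on was above every earlier one. The rise from E16.5 to E18.5 was 1.68 on the log2 scale (SE 0.14, adjusted p = 0.000294) and the only call of the 5 genes where 4.69% of genes were called. It held with each plate left out in turn. For Prox1 at E16.5 against E15.5 the estimate was log2 0.55 (SE 0.15, adjusted p = 0.0946, and 0.0141 with DESeq2), with the plates apart.

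Shox2 was highest at E14.5 and lowest at P3. Its levels were 61.9, 70.8 and 100.4 CPM at E16.5, 71.8 CPM at E17.5, 68.7 and 67.3 CPM at E18.5 and 41.0 and 40.4 CPM at P3. The E16.5 plates spread over those of E15.5 and E18.5, and the P3 plates were below all others. Between E18.5 and P3 Shox2 fell by 0.74 on the log2 scale (SE 0.19, adjusted p = 0.0166), so that with Pou4f1 2 of 5 genes were called, where 24.8% of all genes were called. With any 1 of the 4 plates of E18.5 and P3 left out, the adjusted p of Shox2 was 0.066 to 0.0835 (log2 -0.77 to -0.74). That of Pou4f1 was 0.141 without E18.5 plate 1 (log2 0.51), 0.0635 without E18.5 plate 2 (log2 0.64) and 0.149 without P3 plate 2 (log2 0.41).

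Over the whole embryonic interval, E18.5 against E14.5, 5 of the 5 genes were called, where 23.6% of 17783 genes were. On the log2 scale Pou4f1 fell by 1.43 (SE 0.16, adjusted p = 0.000133), Isl1 fell by 0.99 (SE 0.10, adjusted p = 9.15e-05) and Shox2 fell by 1.05 (SE 0.19, adjusted p = 0.0031). Pou4f2 rose by 1.73 (SE 0.27, adjusted p = 0.00126) and Prox1 by 2.22 (SE 0.16, adjusted p = 1.56e-05). The median of all genes was 0.104 on this scale, and each call held under all 19 alternatives run. These comparisons share plates, and E14.5 and E15.5 came from SS2_20 plates alone while the E18.5 plates were of the series SS2_19 and those of P3 of SS2_15, so that stage and plate series cannot be told apart between them. Nor can stage and the Cre driver that the methods give for E14.5. The E17.5 plate is of the series SS2_20 and has 1 plate and therefore no test. Its level was nearer to those of E18.5 than to those of E14.5 for all 5 genes. Glial markers in SGN-like cells summed to 81.1 to 132 CPM at E14.5, 44.0 CPM at E17.5 and 3488 to 3564 CPM at E18.5, and the 5 calls held with the 25% of SGN-like cells highest in glial markers left out. That cut was made within each plate and did not set the stages to one level of glial markers, whose part in the changes was not tested.

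Levels between genes are compared per kilobase of exon sequence (GENCODE). Isl1 was highest, at 192 ± 59.5 CPM per kb (SD over 12 plates), followed by Pou4f1 at 39.4 ± 15.6, Shox2 at 24.9 ± 10.4, Pou4f2 at 16.4 ± 5.95 and Prox1 at 7.38 ± 4.70. Only the gap between Isl1 and Pou4f1 was larger than the SDs of both neighbours together. These means pool stages, and the order below Isl1 and Pou4f1 was not the same at each: Shox2 was above Pou4f2 at E14.5 (43.9 ± 2.41 against 5.48 ± 1.81 CPM per kb, n = 2 plates) and below it at P3 (12.3 ± 0.128 against 20.7 ± 4.60).

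The share of SGN-like cells with at least 1 count is given by stage next. Isl1 was detected in 95.8% or more and Shox2 in 89.9% to 97.6% of SGN-like cells at each stage. Pou4f1 was in 96.9% of cells at E14.5 (95% Wilson interval 92.4% to 98.8%, 126 of 130 cells), in 87.2% at E16.5, in 52.9% at E17.5 and in 66.2% at E18.5 (62.4% to 69.8%). Pou4f2 went from 17.7% at E14.5 to 78.0% at E16.5 and 83.9% at E18.5, and Prox1 from 25.4% to 58.9% and 91.8%. At E16.5 the shares were lower in plate 3, of the series SS2_20 (Pou4f1 78.3%, Pou4f2 55.1% and Prox1 43.5%), than in plates 1 and 2 (83.5% to 92.6%, 79.8% to 80.7% and 59.8% to 61.1%). With each cell thinned to 100000 counts, which left out 3 cells at E14.5 and 5 at E18.5, the shares at E14.5 and E18.5 were 96.9% and 60.1% for Pou4f1, 14.96% and 77.6% for Pou4f2 and 22.8% and 88.3% for Prox1. Glia-like cells were taken to lack these genes, which was not tested, and to give the background in the SS2_20 plates: Pou4f1 3.40%, Pou4f2 1.44%, Isl1 5.94%, Prox1 5.09% and Shox2 2.46% of 1178 cells, at a median of 248396 counts per cell against 249346 in SGN-like cells of those plates. The 43 glia-like cells of the other plates held SGN markers, at 1393 to 8738 CPM in sum, and had a count of Pou4f1 in 58.1%, of Pou4f2 in 48.8%, of Isl1 in 79.1%, of Prox1 in 51.2% and of Shox2 in 69.8% (median 347118 counts, against 390895 in SGN-like cells), so they gave no separate background for those plates. Intervals cover counting error only.

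SGNs were then set against the other classes of the embryonic plates, to ask how far the 5 genes mark neurons. All were higher in SGN-like cells than in glia-like and OM-like cells, and HC-like cells shared Isl1 and some Prox1 with SGN-like cells but held little of the others. Classes of a plate come from the same animals, so the plate was a block in these tests. Over the 10 embryonic plates SGN-like cells held 98.4 to 295 CPM Pou4f1 (median 169), 13.5 to 72.3 CPM Pou4f2 (median 54.0), 595 to 1346 CPM Isl1 (median 660.1), 22.5 to 117 CPM Prox1 (median 37.02) and 61.9 to 151.1 CPM Shox2 (median 80.2).

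In glia-like cells of the 6 SS2_20 plates (1178 cells) the genes were low: Isl1 at 2.40 to 10.5 CPM, Prox1 at 2.09 to 7.96 CPM, Pou4f1 at 0.159 to 3.31 CPM, Shox2 at 0.0177 to 2.02 CPM and Pou4f2 at 0 to 1.00 CPM. The 412 OM-like cells of those plates held at most 2.74 CPM of any of them. None of these ranges overlapped that of SGN-like cells. In the other plates 43 glia-like and 15 OM-like cells held means of 214 and 314 CPM Isl1 and of 46.7 and 63.3 CPM Pou4f1. The 10 SGN markers summed to 1393 to 8738 and 6890 to 8737 CPM in those cells, against 535 to 775 and 190 to 286 CPM in glia-like and OM-like cells of SS2_20 plates, and their part in the levels there was not tested. In glia-like against SGN-like cells 5 of 5 genes were called (45.2% of 15938 genes), all lower, from log2 -6.42 for Isl1 (SE 1.05, adjusted p = 3.27e-05) to log2 -2.71 for Prox1 (SE 0.85, adjusted p = 0.0119). In OM-like against SGN-like cells 5 of 5 were called (43.2% of genes), all lower, from log2 -8.46 for Isl1 (SE 1.34) to log2 -5.03 for Prox1 (SE 1.11, adjusted p = 0.00082), beside a median of -0.139 over all genes. Within the SS2_20 plates alone, a setting chosen after seeing the data, the same 10 calls were made, with Isl1 at log2 -7.62 and Prox1 at log2 -2.76 (adjusted p = 0.044) in glia-like cells and Prox1 at log2 -6.79 in OM-like cells.

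**Figure D2:**
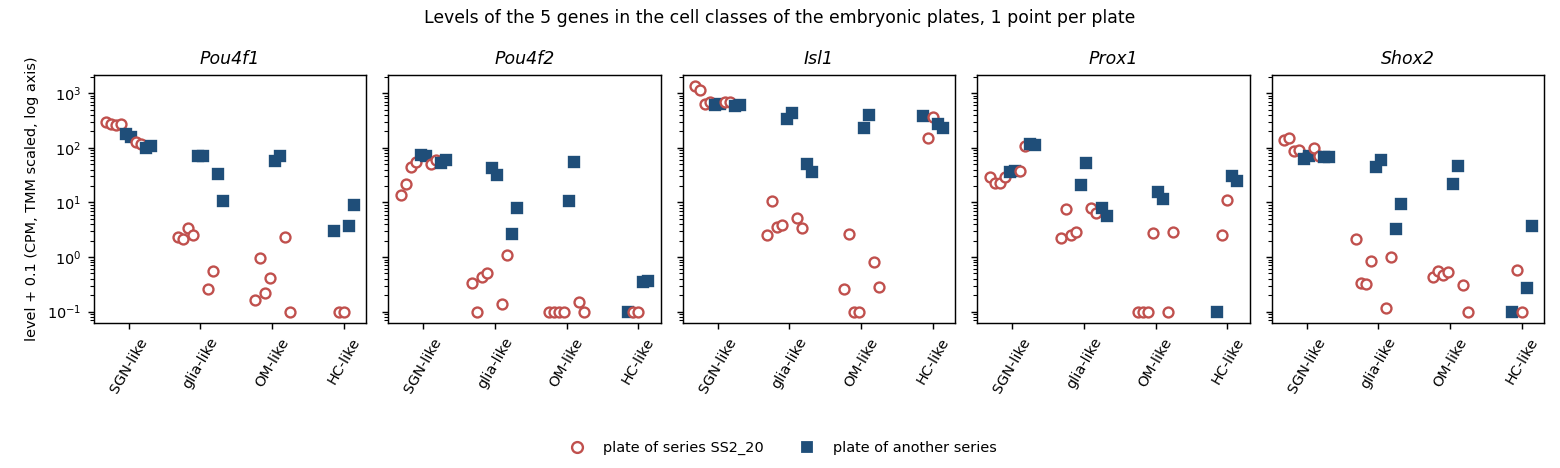
Level plus 0.1 CPM (log axis, common TMM scale) of each gene in SGN-like, glia-like, OM-like and HC-like cells of the embryonic plates, with 1 point per plate, open circles for plates of the series SS2_20 and squares for the others. In the SS2_20 plates glia-like and OM-like cells lay below SGN-like cells for all 5 genes, while Isl1 in HC-like cells reached 149 to 375 CPM.

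HC-like cells (86 cells, 5 plates) held 149 to 375 CPM Isl1 (median 276), in which every plate was below the lowest SGN-like plate. The mean was 279.6 ± 93.9 CPM (SD, n = 5). The study found vestibular beside cochlear hair cells and left the vestibular ones out. That step was not repeated here, so HC-like cells may hold both kinds. In HC-like cells the 10 SGN markers summed to 991 to 1751 CPM and the 8 glial markers to 491 to 2374 CPM. Their part in the levels of the 5 genes was not tested. Isl1 was detected in 76 of 86 HC-like cells (88.4%, thinned 87.1%) and Prox1 in 39 (45.3%, thinned 38.8%), at 0 to 30.6 CPM over the plates. Pou4f1 was detected in 24 (27.9%, thinned 15.3%), at 8.86 CPM at most, and 5.81% of HC-like cells held 5 or more counts of it. Of the 5 genes 3 were called in HC-like against SGN-like cells (35.3% of genes): Pou4f1 (log2 -7.66, SE 1.58, adjusted p = 0.000538), Pou4f2 (log2 -10.18, SE 1.80, adjusted p = 0.000109) and Shox2 (log2 -8.38, SE 1.60, adjusted p = 0.000246), beside a median of -0.198 over all genes. The sizes of these estimates depend on counts near 0. Isl1 (log2 -2.06, SE 1.20, adjusted p = 0.189) and Prox1 (log2 -2.77, SE 1.16, adjusted p = 0.0672, and 0.0171 with DESeq2) did not pass. With at least 10 cells per sum, which kept HC-like cells of the E18.5 plates only, Pou4f1 was at log2 -4.21 (adjusted p = 0.141) and Shox2 at log2 -5.91 (adjusted p = 0.0809). The close relative Pou4f3, a factor of hair cells, was higher in HC-like cells by 10.43 on the log2 scale, and Lhx3, a LIM-homeodomain gene of hair cells, by 9.73.

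Neuron classes were compared next. Of the SGN-like cells 1683 had a sub-class named, after markers that the study had in part picked from these libraries; 71 of the 130 cells of E14.5, 102 of those of E15.5 (beside 22 Ic-like and 44 intermediate cells), 41 of the 779 of E16.5, 44 of the 70 of E17.5 and 329 of the 622 of E18.5 stayed without one. At E16.5 the sub-classes were unspecialized-like (197 cells), intermediate Ia/Ib/II-like, the common state before Ia, Ib and II neurons (260 cells), Ic-like (204 cells) and II-like (77 cells). The 5 genes were left out of the clustering, but genes that vary with them were not, so the sub-classes and their levels are not fully independent. Type I neurons, with the subtypes Ia, Ib and Ic, contact inner hair cells, and type II neurons contact outer hair cells.

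At E16.5 the POU4F genes divided the sub-classes in opposite ways. Pou4f1 was at 297, 276 and 172 CPM in unspecialized-like, 40.2, 32.5 and 21.01 CPM in intermediate and 330.2, 324 and 304 CPM in Ic-like cells of plates 1 to 3. Pou4f2 was at 43.2, 37.3 and 24.6 CPM, 109, 98.7 and 78.5 CPM, and 41.4, 39.2 and 43.3 CPM in the same order. Of these 3 sub-classes, intermediate cells were lowest for Pou4f1 and highest for Pou4f2 in every plate, without overlap. Pou4f1 was higher in Ic-like than in intermediate cells by 3.39 on the log2 scale (SE 0.16, adjusted p = 1.2e-05), and Pou4f2 lower (log2 -1.21, SE 0.18, adjusted p = 0.00423). Pou4f1 was lower (log2 -2.98, SE 0.15, adjusted p = 6.63e-05) and Pou4f2 higher (log2 1.45, SE 0.18, adjusted p = 0.0065) in intermediate than in unspecialized-like cells.

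Isl1 and Prox1 were lower in Ic-like cells of E16.5. Isl1 was at 284, 365 and 449 CPM in Ic-like cells, against 787, 815 and 835 CPM in intermediate and 773, 702 and 571 CPM in unspecialized-like cells. Prox1 was at 13.5, 24.8 and 23.5 CPM in Ic-like, 53.4, 49.2 and 55.4 CPM in intermediate and 40.7, 43.5 and 30.4 CPM in unspecialized-like cells. Ic-like cells did not overlap the others for either gene. The differences from intermediate cells were log2 -1.17 for Isl1 (SE 0.15, adjusted p = 0.00209) and log2 -1.39 for Prox1 (SE 0.27, adjusted p = 0.0161). Shox2 overlapped, with 40.5, 58.3 and 110.2 CPM in Ic-like and 70.5, 77.3 and 79.2 CPM in intermediate cells (log2 -0.25, SE 0.21, adjusted p = 0.623).

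Of the 5 genes 4 were thus called in Ic-like against intermediate cells of E16.5, where 5.08% of 15181 genes were, and 2 in intermediate against unspecialized-like cells, where 0.87% were. Only Pou4f1 kept both calls with each plate left out. In Ic-like against intermediate cells, the adjusted p of Pou4f2 was 0.155 without plate 1 and 0.204 without plate 2, that of Prox1 0.319 and 0.185, and that of Isl1 0.0809 without plate 2. In intermediate against unspecialized-like cells, that of Pou4f2 was 0.131 without plate 1 and 0.281 without plate 2. With the glial genes kept for clustering it was 0.0879 and 0.149 for Pou4f2 in the 2 comparisons and 0.0942 for Prox1 in the first, where Prox1 was at 0.159 without the cells highest in glial markers. Under these settings the estimates of Pou4f2 were log2 -1.22 to -1.10 in the first comparison and log2 1.15 to 1.52 in the second, those of Prox1 log2 -1.79 to -1.10 and that of Isl1 log2 -1.17. Without plate 3, Shox2 was called lower in Ic-like than in intermediate cells (log2 -0.59, adjusted p = 0.0307). The II-like cells of plates 1 and 2 held 57.0 and 46.5 CPM Pou4f1 and 98.8 and 120.0 CPM Pou4f2, which overlapped with intermediate cells for Pou4f2 and lay above them for Pou4f1, and were not part of these tests.

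**Figure D3:**
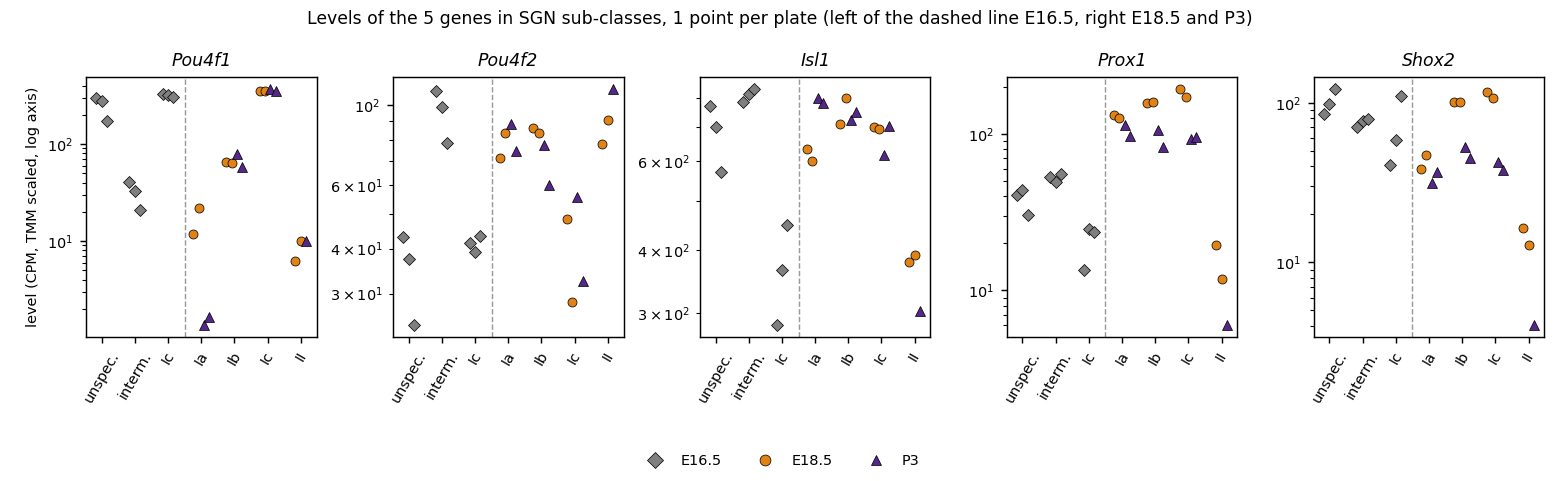
Level of each gene (CPM on a common TMM scale, log axis) in sub-classes of SGN-like cells with 5 or more cells in a plate, 1 point per plate, for E16.5 on the left of the dashed line and for E18.5 and P3 on its right. Pou4f1 in Ic-like cells lay between 304 and 371 CPM at all 3 stages and at 1.36 to 21.7 CPM in late Ia-like cells, and Prox1 and Shox2 were lowest in late II-like cells.

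At E18.5 and P3 the level of Pou4f1 rose from Ia-like over Ib-like to Ic-like cells, while Pou4f2 formed no such series. These differences were not tested against those of E16.5. Pou4f1 was at 11.9 and 21.7 CPM (E18.5) and 1.36 and 1.63 CPM (P3) in Ia-like cells. It was at 65.1, 64.0, 79.2 and 57.9 CPM in Ib-like cells of the same 4 plates, and at 349.6, 353, 371 and 351 CPM in Ic-like cells. The 3 sub-classes did not overlap in any of the plates. Against Ia-like cells Pou4f1 was higher in Ib-like cells by 3.27 on the log2 scale (SE 0.64, adjusted p = 0.0165) and in Ic-like cells by 5.69 (SE 0.68, adjusted p = 0.000297). Ic-like against Ib-like cells gave log2 2.42 (SE 0.56, adjusted p = 0.129, and 0.049 with DESeq2). The call for Ib against Ia was lost without E18.5 plate 1 (adjusted p = 0.0953) or P3 plate 2 (adjusted p = 0.0923), with the glial genes kept for clustering (0.108) and without the cells highest in glial markers (0.0542), at estimates of log2 3.62, 2.84, 4.28 and 3.19 in that order.

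Among Ia-, Ib- and Ic-like cells, Pou4f2 was lowest in Ic-like cells, at 48.3, 28.5, 55.6 and 32.6 CPM. It was at 71.2, 83.8, 88.4 and 74.5 CPM in Ia-like and 86.5, 83.7, 77.6 and 60.1 CPM in Ib-like cells. Ic-like cells were below both others in every plate. The 72 intermediate cells of E18.5 held 32.08 to 36.98 CPM Pou4f2, within the range of the Ic-like cells of that stage, and were not part of these tests. Pou4f2 was lower in Ic-like than in Ia-like cells (log2 -0.98, SE 0.18, adjusted p = 0.00464) and than in Ib-like cells (log2 -0.92, SE 0.18, adjusted p = 0.0479). The latter call was lost with any 1 plate left out (log2 -1.08 to -0.74, adjusted p 0.0799 to 0.406), without the plate as a block (0.0823), at Leiden resolution 2 (0.101) and with the glial genes kept for clustering (log2 -0.35, adjusted p = 1.0), and the call against Ia under that last setting (log2 -0.66, adjusted p = 0.178). Of the 5 genes 1 was called in Ib against Ia (2.45% of 14470 genes), 2 in Ic against Ia (6.7%) and 1 in Ic against Ib (0.394%).

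Isl1 and Prox1 were called in none of the comparisons among type I sub-classes. Isl1 ran from 601 to 802 CPM in Ia-like, 709.7 to 799.7 CPM in Ib-like and 618 to 705 CPM in Ic-like cells. The interval of its difference between Ic-like and Ia-like cells was -0.26 to 0.14 on the log2 scale, and that of Prox1 -0.18 to 0.48. Prox1 was at 132 and 126 CPM in Ia-like, 157 and 159.6 CPM in Ib-like and 194 and 172 CPM in Ic-like cells of E18.5, and at 114 and 97.5, 106 and 82.2, and 92.7 and 96.2 CPM in those of P3. At E18.5 the 3 sub-classes did not overlap for Prox1, at P3 Ib-like cells overlapped with both others and Ic-like cells lay below Ia-like cells, and the difference between stages was not tested. Shox2 was at 38.3, 47.0, 31.5 and 36.8 CPM in Ia-like, 101, 101, 53.1 and 45.0 CPM in Ib-like and 117, 107, 42.6 and 37.9 CPM in Ic-like cells. At E18.5 Ia-like cells were apart from both others, and at P3 the gap was small. Neither Ib against Ia (log2 0.83, SE 0.23, adjusted p = 0.0981, and 0.0198 with DESeq2) nor Ic against Ia (log2 0.77, SE 0.24, adjusted p = 0.0757, and 0.022 with DESeq2) was called for Shox2.

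II-like cells (62 cells in the 3 plates with 5 or more) had little Prox1 and Shox2. Prox1 was at 19.5 and 11.9 CPM at E18.5 and 6.01 CPM in P3 plate 1, and Shox2 at 16.48, 12.9 and 4.05 CPM. Isl1 was at 378, 391 and 303 CPM and Pou4f1 at 6.23, 10.1 and 10.1 CPM, while Pou4f2 was at 77.7, 91.0 and 111 CPM. For Isl1, Prox1 and Shox2 every II-like value was below every Ia-, Ib- and Ic-like value, whereas Pou4f1 overlapped with Ia-like and Pou4f2 with Ia- and Ib-like cells. All 5 genes were called in II-like cells against the mean of the type I sub-classes, where 20.8% of genes were. Prox1 was lower by log2 -3.56 (SE 0.21, adjusted p = 6.09e-07), Shox2 by log2 -2.70 (SE 0.27, adjusted p = 2.33e-05), Isl1 by log2 -0.96 (SE 0.10, adjusted p = 3.66e-05) and Pou4f1 by log2 -2.78 (SE 0.65, adjusted p = 0.00898), and Pou4f2 was higher by log2 0.49 (SE 0.16, adjusted p = 0.0445). The call of Pou4f2 was lost with any 1 plate left out (log2 0.43 to 0.64, adjusted p 0.0515 to 0.198), with the glial genes kept for clustering (0.157) and at Leiden resolution 2 (0.0809), and that of Pou4f1 without E18.5 plate 1 (log2 -2.54, adjusted p = 0.0937).

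The drop of Pou4f1 in SGN-like cells as a whole was not seen in Ic-like cells, in which it was at 207 and 400.1 CPM at E14.5, 306 CPM in E15.5 plate 1 and 418 CPM at E17.5. Intermediate cells held 192 and 189 CPM Pou4f1 at E14.5, 80.8 and 195 CPM at E15.5 and 9.68 CPM at E17.5, with the E16.5 values between, and 40.7 and 74.9 CPM at E18.5. In Ic-like cells Prox1 was at 0.644 and 1.296 CPM at E14.5 (14 cells), near or under the level of 3 counts in those sums (1.93 and 1.296 CPM), and at 108 CPM at E17.5. Pou4f2 was at 0 of all counts in the 16 unspecialized-like cells of E14.5, where 3 counts are 1.62 and 1.48 CPM, while Isl1 was at 2232 and 2094 CPM there, above every other sub-class sum. Prox1 was at 63.6 to 117 CPM in those 16 cells, against 30.4 to 43.5 CPM in unspecialized-like cells of E16.5. The sums of E14.5, E15.5 and E17.5 given here hold 6 to 28 cells, the differences were not tested, and the share of each sub-class among SGN-like cells and the level within it cannot be told apart in the stage comparisons.

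The 5 genes were also read cell by cell. A count of each of Pou4f1, Isl1, Prox1 and Shox2 was found in 1200 of 2270 SGN-like cells (52.9%), in 23.8% at E14.5, 25% at E15.5, 49.9% at E16.5, 41.4% at E17.5, 60.6% at E18.5 and 66.3% at P3. At E16.5 the share was 55.4% and 48.9% in plates 1 and 2 and 27.5% in plate 3, the SS2_20 plate, so the difference from E15.5 went with the plate series, whose part in it was not tested. With cells thinned to 100000 counts the share was 21.3% at E14.5, 22.8% at E15.5, 45.2%, 42.0% and 25.4% in the E16.5 plates, 37.1% at E17.5, 52.2% at E18.5 and 51.5% at P3. In SS2_20 plates 0 of 1178 glia-like cells held all 4, which allows a share of up to 0.255%. In the other plates 14 of 43 glia-like cells did (32.6%), the cells with the raised SGN markers given above. At E16.5 all 4 were in 36.8% of Ic-like, 50.4% of intermediate, 55.8% of II-like and 61.4% of unspecialized-like cells. With thinning these shares were 31.2%, 38.8%, 44.2% and 58.9%. Among late sub-classes all 4 were in 98.4% of Ic-like cells at E18.5 and 98.1% at P3, in 85.4% and 82.8% of Ib-like, 38.8% and 16.8% of Ia-like and 13.6% and 4.55% of II-like cells. The P3 plates were deeper, and with cells thinned to 100000 counts the shares at E18.5 and P3 were 91.9% and 80.1% in Ic-like, 79.2% and 67.2% in Ib-like, 25.4% and 5.11% in Ia-like and 11.4% and 4.55% in II-like cells. What Ia-like cells lacked was mostly Pou4f1, detected in 40.3% at E18.5 and 16.8% at P3 (thinned 29.9% and 6.57%), against every one of the Ic-like cells at both stages. Of II-like cells 31.8% at E18.5 and 18.2% at P3 held a count of Pou4f1, and 45.5% and 36.4% one of Prox1. At P3 4.38% of Ia-like cells held 5 or more counts of Pou4f1, and the cells with any held a median of 1.94 CPM.

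**Figure D4:**
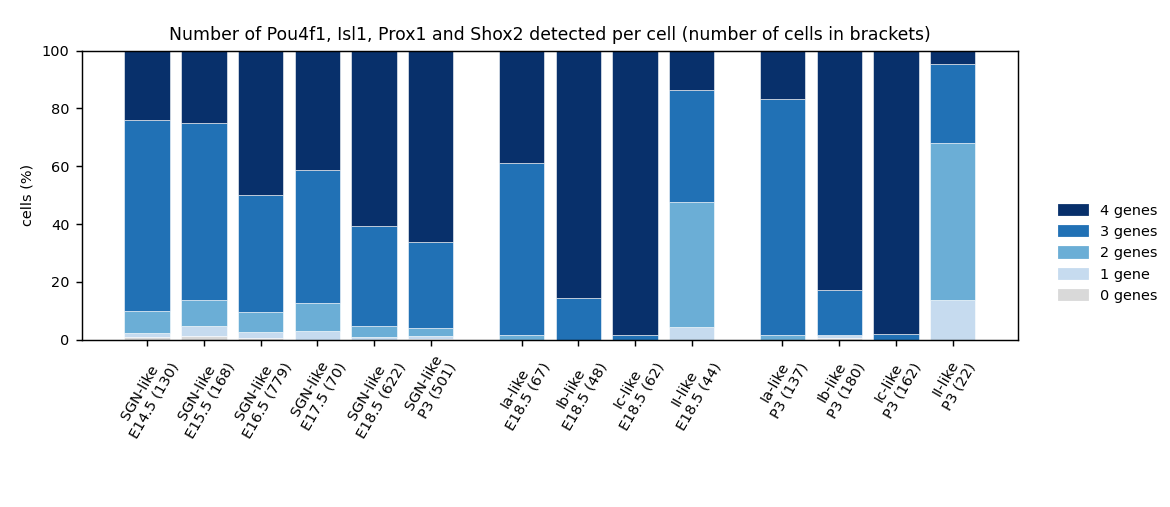
Share of cells (%) with a count of 0, 1, 2, 3 or all 4 of Pou4f1, Isl1, Prox1 and Shox2, for SGN-like cells by stage and for Ia-, Ib-, Ic- and II-like cells at E18.5 and P3, with the number of cells in brackets. All 4 were found in 98.4% and 98.1% of Ic-like cells (91.9% and 80.1% with cells thinned to 100000 counts) and in 13.6% and 4.55% of II-like cells (thinned 11.4% and 4.55%).

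Levels per cell, as log2(CPM + 1), were correlated over the SGN-like cells of each plate as a description. Cells of a plate share its library preparation, and a correlation over all SGN-like cells mixes sub-classes. Isl1 went with Prox1 (r 0.10 to 0.42, median 0.28) and with Shox2 (r 0.15 to 0.58, median 0.34), positive in 12 of 12 plates, and Pou4f1 went weakly with Shox2 (r 0.06 to 0.34, positive in 12). Pou4f1 and Pou4f2 had r from -0.36 to 0.12 (median -0.26), above 0 in 1 of 12 plates. For Pou4f1 and Isl1 r changed its sign with stage: it was 0.30 and 0.56 in the E14.5 plates and 0.07 and 0.34 in those of E15.5, and below 0 in all 8 plates from E16.5 on, down to -0.37 at E17.5. Within Ic-like cells of E16.5 alone, r of Pou4f1 and Isl1 was 0.36 (93 cells), 0.40 (97 cells) and 0.68 (14 cells), and within those of E18.5 and P3 it was 0.03 to 0.07. Pou4f1 and Pou4f2 gave r of 0.14, 0.21 and 0.26 within Ic-like cells of E16.5. Those Ic-like cells pooled several clusters, and r within single clusters was not computed.

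**Figure D5:**
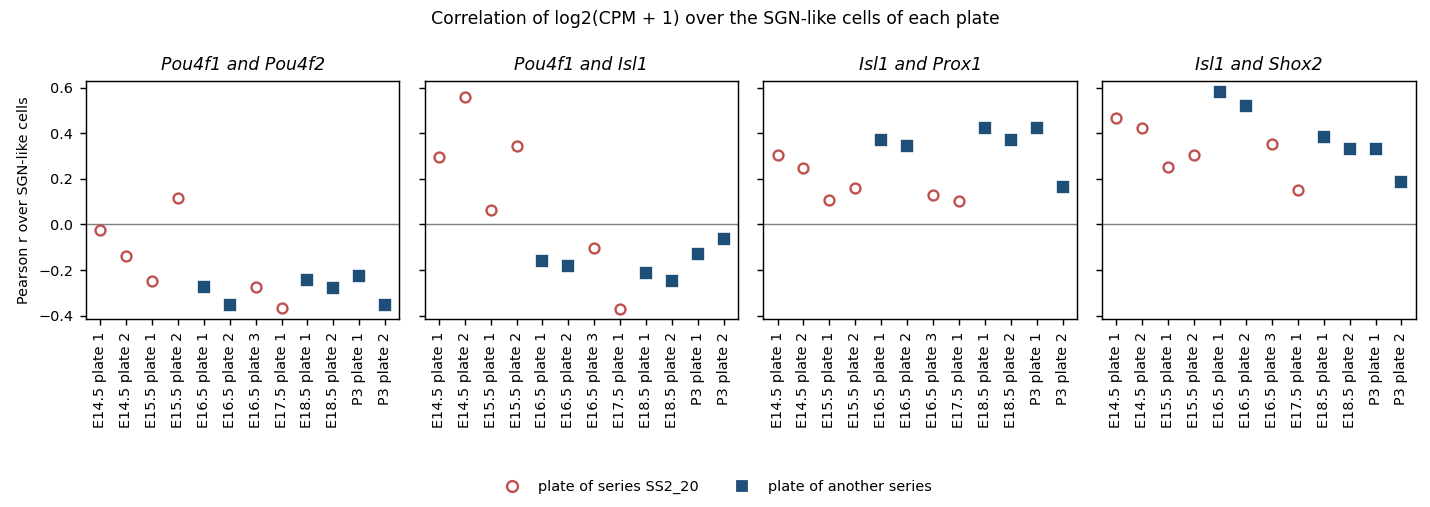
Pearson r of log2(CPM + 1) between pairs of the genes over the SGN-like cells of each plate, with a line at 0, open circles for plates of the series SS2_20 and squares for the others. Isl1 with Prox1 and Isl1 with Shox2 lay above 0 in 12 plates, and Pou4f1 with Isl1 lay above 0 in the 4 plates of E14.5 and E15.5 and below 0 in the 8 later ones.

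Across the 12 plates, Pou4f1 and Prox1 in SGN-like cells ran against each other (Pearson r -0.91, Spearman rho -0.95), and so did Pou4f2 and Isl1 (r -0.94, rho -0.54). Stage and plate series are shared by these points. For Pou4f2 and Isl1 the E14.5 plates lay apart from all others in both genes, and r without them was not computed. Among 9929 genes with a mean of 10 CPM or more, those with the highest r were Plxna2, Ttll7 and Smarca5 for Pou4f1 (r 0.95, 0.95 and 0.94, ranked 206, 2 and 8 by Spearman's rho) and Xpot, Sh3bgrl3 and Kitl for Pou4f2 (r 0.98, 0.96 and 0.95, ranked 4, 64 and 28). For Isl1 they were Btbd17, Rd3 and Shh (r 0.99, 0.97 and 0.96), ranked 9, 2961 and 919 by rho. For Prox1 they were Ndrg2, Tex264 and Scamp5 (r 0.95, 0.94 and 0.94, ranked 24, 9 and 8), and for Shox2 Nacad, Dpysl4 and Actb (r 0.98 each, ranked 13, 164 and 152).

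Genes of the same families and of the same pathway were counted in each comparison. Of 13 family relatives, 9 were tested between stages, and of these Isl2, the closest relative of Isl1, was called lower at E18.5 than at E14.5 (log2 -2.04, SE 0.12, adjusted p = 3.64e-06), and none was called higher (median of the relatives -1.47, of all genes 0.104). Of all 17783 genes 23.6% were called in this comparison, 1710 of them lower. Of 11 LIM-domain cofactors 5 were lower and 0 higher in that comparison, among them Ldb1, the adaptor that joins LIM factors into complexes (log2 -0.94, SE 0.16, adjusted p = 0.00177), Lmo1, which competes for it (log2 -1.31, SE 0.41, adjusted p = 0.0428), and Ssbp3, which stabilises it (log2 -1.11, SE 0.14, adjusted p = 0.000399). Of 17 genes of the sensory neuron programme tied to POU4F1 and ISL1, 9 were lower and 1, Runx1, was higher (log2 0.82, SE 0.15, median of the list -4.50). Among those lower were Prrxl1 (Drgx) and Prdm12, factors of pain-sensing neurons (log2 -11.97 and -9.26). The sizes of such large estimates, here and below, depend on counts near 0 in one of the groups compared. In the step from E14.5 to E15.5 2 of 9 relatives and 6 of 17 programme genes were lower and 1 programme gene higher, and none of 11 cofactors was called, where 5.98% of all genes were called. From E15.5 to E16.5 (1.83% of all genes) 1 relative was higher, Lhx6, a LIM-homeodomain gene (log2 6.00, SE 1.16, adjusted p = 0.0305). Lhx6 was among those lower in the step before (log2 -8.65, SE 1.215), and both of its estimates are of the large kind that depends on counts near 0. In the same step 1 cofactor, Ssbp2 (log2 -0.72), and 2 programme genes were lower from E15.5 to E16.5. From E16.5 to E18.5 (4.69%) Isl2 (log2 -0.52) and 3 cofactors, Ldb1, Ssbp3 and Ssbp4 (log2 -0.86 to -0.69), were lower and 1 programme gene higher. From E18.5 to P3 3 of 9 relatives, 5 of 17 programme genes and 1 of 11 cofactors, Ssbp3 (log2 -0.50), were lower, where 24.8% of all genes were called. The 1 gene of the lists called higher at P3 was Lmo1 (log2 1.53, SE 0.41, adjusted p = 0.0207), opposite to its fall from E14.5 to E18.5.

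Against SGN-like cells 8 relatives, 11 cofactors and 12 programme genes were tested. Glia-like cells had 3 relatives, 4 cofactors and 9 programme genes lower and 4 cofactors and 1 programme gene higher, where 45.2% of all genes were called. OM-like cells had 5, 1 and 7 lower and 4 cofactors and 1 programme gene higher (43.2% of all genes). HC-like cells had 1 relative, 3 cofactors and 5 programme genes lower and 2 of each list higher (35.3%). At E16.5, where 5.08% of 15181 genes were called, 3 programme genes were higher in Ic-like than in intermediate cells, Neurod6 (log2 9.25, SE 1.91), Etv1 (log2 3.24, SE 0.69) and Runx1 (log2 1.74, SE 0.19, adjusted p = 0.000753), and none was lower of 12 tested. Of 11 cofactors Ldb2 (log2 4.56, SE 1.06) and Ssbp2 (log2 0.75, SE 0.17) were higher, and of 6 relatives Isl2 was lower (log2 -0.51, SE 0.12, adjusted p = 0.0346). In intermediate against unspecialized-like cells (0.87% of genes) 1 gene of the lists was called, Neurod1, lower in intermediate cells (log2 -2.11, SE 0.34, adjusted p = 0.0207). At E18.5 and P3 Runx1, a factor that sensory neuron classes use to choose their identity, was higher in Ib-like (log2 3.80, SE 0.45, adjusted p = 0.000755) and in Ic-like (log2 3.87, SE 0.45, adjusted p = 0.000238) than in Ia-like cells and lower in II-like than in type I cells (log2 -4.54, SE 0.53, adjusted p = 7.25e-05). Lmo1 was lower in Ib-like (log2 -1.53, SE 0.26) and Ic-like (log2 -1.40, SE 0.25) than in Ia-like cells. Isl2, lower in Ic-like cells at E16.5, was here higher in Ic-like than in Ia-like cells (log2 0.84, SE 0.14, adjusted p = 0.00329), as was Neurod1 (log2 2.94, SE 0.62, adjusted p = 0.0132). In II-like cells Isl2 (log2 -1.29), Neurod1 (log2 -2.85), Lmo1 (log2 -0.88) and Ssbp3 (log2 -0.57) were lower and Ssbp4 (log2 0.44) higher than in type I cells, where 20.8% of genes were called. No gene of the 3 lists was called in Ic against Ib by edgeR's quasi-likelihood test, in which 57 of 14470 genes were called.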

How the data were processed

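Smart-seq2 libraries of sorted cochlear cells were analysed from 12 plates. The deposited values are whole-number read counts per gene and well, which the authors made by alignment to mm10; the labels name STAR and Scanpy, and strand settings are not given in the sources used here. Reads carry no molecule barcodes. A further plate of the table matched no sample and was not used (1 plate, 384 wells). Wells with more than 1000 genes and under 5% spike-in counts were kept, as in the study's methods (4226 of 4608). Its reporting summary gives another filter (at least 50000 counts and 2500 genes, at most 25% spike-in), which 4109 wells passed, 4106 of them also kept here, with 2248 of the 2270 SGN-like cells. The number of cells stated there is below what either filter left. Totals per plate were 80997594 to 303906928 counts.

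Cells were clustered by stage with scanpy 1.11.5 and leidenalg 0.10.2 (2000 variable genes, 30 components, resolution 1), without the 5 genes, the listed genes and 1364 glial genes, and clusters were named from markers. The study gated doublets at the sort and, for some clusters, also treated cells lying far from their cluster on its embedding as doublets. That second step was not repeated here, and no doublet caller was run. Counts were summed per plate and class (at least 5 cells, 3 for HC-like) and tested with edgeR 4.0.16 (R 4.3.3; TMM, quasi-likelihood, Benjamini-Hochberg adjusted p under 0.05 over all genes), with the plate as a block between classes, since classes of a plate come from the same animals. Levels are CPM on one TMM scale, and intervals of log2 differences cover 95%. Thinning used 100000 counts per cell, and detection intervals are Wilson's. On simulated counts for E18.5 against E14.5 (17783 genes) 37% of genes changed by log2 1 and 55% of those changed by log2 2 were recovered, with 7 false calls. For Ic-like against Ia-like cells of E18.5 and P3 (14470 genes) these shares were 53% and 82%, with 9 false calls. Alternatives were DESeq2 1.42.0, other size factors, filters, clusterings and cell sets, and leaving out each plate. Genes named beside the 5 were, for likeness, the 3 with the highest Pearson r and, for lists, up to 3 called genes per list with the largest change; genes named outside this rule were chosen after their values were seen. The values of 1 listed gene are not reported here. The members and lists were chosen with earlier results of these data known.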

Additional observations from a re-analysis of the deposited data

Results flagged for a closer look

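Of 30 groups of 4 to 10 plates looked at, 4 held a plate far from the others. Chance alone gives about 1 in 20 groups where all plates vary alike. These groups mixed stages and plate series, so that rate does not apply to them. Pou4f2 in OM-like cells was at 55.7 CPM in E16.5 plate 2, against 0 to 10.5 CPM in the other plates. Prox1 in glia-like cells was at 51.7 CPM in the same plate, against 2.09 to 20.4 CPM in the others. The 10 SGN markers summed to 8737 CPM in the OM-like and 8738 CPM in the 9 glia-like cells of that plate, and their part in these levels was not tested. Shox2 in HC-like cells was at 3.56 CPM in E18.5 plate 2, against 0 to 0.483 CPM elsewhere. Isl1 in Ic-like cells was at 618 CPM in P3 plate 1, against 694 to 705 CPM in the other plates of E18.5 and P3.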

How the results depend on the processing

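Of 1150 alternative estimates for the 5 genes, 1042 kept their direction and their side of the threshold, 49 were no longer past it, 27 came past it and 32 changed sign, none of these for a called value. Of 39 called results, 24 were called under every alternative run. Where a value moved, the cause was not tested. Depth limits genes at a few counts per sum, such as Pou4f2 in HC-like cells. The SS2_20 plates hold no E18.5 plate, so comparisons with E18.5 were not run on them alone; for the 3 class comparisons that setting was chosen after seeing the data.

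The number of genes called moved by over 1.5 times under some settings. With DESeq2 it was 2543 for E15.5 against E14.5, 1401 for E16.5 against E15.5 (62.5% higher, against 74.8% with edgeR), 1876 for E18.5 against E16.5, 1542 for Ic against intermediate and 561 for intermediate against unspecialized cells of E16.5, 767 for Ib over Ia, 1529 for Ic over Ia and 244 for Ic over Ib. With SS2_20 plates alone edgeR called 273 genes at E15.5 against E14.5 and 0 at E16.5 against E15.5, where 853 had an unadjusted p under 0.05. Genes with at least 1 count gave 496 for E16.5 against E15.5, and at least 10 cells per sum gave 3026 for HC-like cells. With the glial genes kept for clustering there were 359 (Ic against intermediate), 1853 for II-like cells, 61 for Ib over Ia, 335 for Ic over Ia and 1 for Ic over Ib. Without the SGN-like cells highest in glial markers there were 480 (Ic against intermediate) and 79 (intermediate against unspecialized), and at Leiden resolution 2 there were 28 (Ic against Ib).

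Without the replicate block, which paired classes of the same plate, 512 genes were called for Ic against intermediate and 86 for intermediate against unspecialized cells of E16.5. The only call among the 5 genes that this changed was Pou4f2 in Ic against Ib (log2 -0.91, adjusted p = 0.0823).

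With 1 plate left out in turn, the number called ran from 565 to 1686 (main 1064) for E15.5 against E14.5, 78 to 1160 (325) for E16.5 against E15.5, 75 to 1261 (834) for E18.5 against E16.5, 2124 to 5213 (4411) for P3 against E18.5 and 2146 to 4995 (4192) for E18.5 against E14.5. It ran from 119 to 1692 (771) for Ic against intermediate, 2 to 370 (132) for intermediate against unspecialized, 1847 to 2882 (3014) for II-like cells, 154 to 218 (354) for Ib over Ia, 431 to 798 (969) for Ic over Ia and 14 to 29 (57) for Ic over Ib. Where an arm was left with 1 plate, that plate was assumed to vary like the others.

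The estimates that changed sign were below the threshold in each case. With plates left out, Prox1 at E15.5 against E14.5 ran from -0.1757 to 0.1957 (also 0.1341, 0.0004181, 0.0002711, 0.0001375 and 9.217e-05), and with SS2_20 plates alone it was 0.003554. Isl1 at E16.5 against E15.5 ran from -0.0906 to 0.05507 (also 0.002683) with a plate left out and was 0.008852 with the glial genes kept, 0.1243 without the cells high in glial markers and 0.05181 with SS2_20 plates alone, where Shox2 was 0.1846. At E18.5 against E16.5 Isl1 was 0.09209 and Shox2 0.01286 with the glial genes kept, and Shox2 ran from -0.2898 to 0.08175 with a plate left out. Pou4f2 at P3 against E18.5 ran from -0.02307 to 0.4424, and Shox2 in Ic against intermediate cells from -0.5931 to 0.02273. In Ib against Ia, Pou4f2 ran from -0.1669 to 0.02324 with a plate left out and was 0.04243 without the cells of highest totals, Isl1 ran from -0.02692 to 0.1475 and was -0.09171 with the glial genes kept, and Prox1 ran from -0.05558 to 0.1344 (also -0.02081) and was -0.0892 with the glial genes kept and -0.01303 without the cells high in glial markers. In Ic against Ia, Isl1 ran from -0.1395 to 0.03549 with a plate left out, and Prox1 was -0.1594 with the glial genes kept and -0.1637 at Leiden resolution 2. In Ic against Ib, Prox1 was -0.0702 and -0.3223 under the same settings, and Shox2 ran from -0.1593 to 0.02948 with a plate left out.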
